A study of Homo sapiens with 12 samples.

Results

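Triglyceride in circulating lipoproteins is broken down by secreted lipases, and angiopoietin-like proteins hold these enzymes in check. The expression of 9 genes of this system was examined: the angiopoietin-like genes ANGPTL4, ANGPTL6 and C19orf80 (the older symbol of ANGPTL8), the lipases LPL, LIPC, LIPG and LIPA, the lipase maturation factor LMF1, and the lipase carrier GPIHBP1. They are the rows of the deposited gene counts that carry these symbols, 9 of 26485 genes. They were listed for their function, with earlier results of these data known. C19orf80 was also chosen by a measured value, its level, which was lowest in Z9. Its values are therefore described here without a test. All 9 rows were found, and 7 passed the filter on low counts that left 15289 genes for testing. LPL and GPIHBP1 did not pass.

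RNA was sequenced from HepG2, an established human hepatoma line, in 4 lines of 3 wells each. Z2, Z5 and Z9 carry the genotype label ZHX3-depleted and had received the CRISPR constructs sgZHX3-2, sgZHX3-5 and sgZHX3-9. Empty, the control line labelled WT, had received the construct without a guide to ZHX3, a zinc-finger and homeobox gene. All 4 lines were transfected with lipofectamine and selected with blasticidin, and the labels give 1 line per construct. P-values therefore measure the spread between wells, and what a guide did cannot be told apart from the history of a line. Libraries held 50864744 to 65428204 counts. ZHX3 mRNA averaged 34.5 ± 0.620 counts scaled to library size (CPM) in Z2, 32.9 ± 0.505 in Z5 and 34.3 ± 0.713 in Z9, against 33.0 ± 0.421 in Empty (SD, n = 3 wells each), which shows neither a small edit nor the protein. Summed CPM of 8 hepatocyte markers was 54836 to 55900 in Empty. In the labelled lines it was 50063 to 54614 in Z2, 52305 to 52749 in Z5 and 48876 to 49938 in Z9. In Z9, 0 of the 8 rose and 3 fell, beside 9.66% and 9.58% of all genes tested. In the mean of the 3 lines 2 rose and 2 fell, beside 13% and 12.6%. The part of these markers in the member results was not tested. Of 6 endothelial markers, 4 reached 10 counts in a well, and their sum was 11.4 to 14.2 CPM in the labelled lines, against 8.20 to 9.27 in Empty. Of the 4 endothelial markers tested, 2 rose and 0 fell in the mean of the 3 lines, beside 13% and 12.6% of all genes. TIE1 (log2 change 1.13) and CDH5 (1.67) rose (edgeR adjusted p = 3.36e-06 and 0.000176), and their part in the member results was not tested. PECAM1 and VWF, also tested, did not pass. Of 5 adipocyte markers 2 reached 10 counts in a well, with sums of 2.66 to 6.19 CPM over all wells, and 0 were called. Of 6 macrophage markers 3 reached 10 counts, and nearly all of their sum was LYZ, lysozyme. The endothelial markers KDR and EMCN, the adipocyte marker FABP4 and the macrophage marker MARCO had 0 counts in every well.

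As background, lipoprotein lipase works on the wall of capillaries in fat and muscle, held there by GPIHBP1. The liver secretes hepatic lipase and, together with endothelium, endothelial lipase, which act mainly on remnant particles and on high-density lipoprotein. ANGPTL4, which rises on fasting, unfolds lipoprotein lipase, and ANGPTL8, which rises on feeding, acts in complex with other family members to steer fat between tissues. LMF1 is needed in the endoplasmic reticulum for these lipases to fold, and LIPA works apart from them, inside lysosomes.

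All 3 angiopoietin-like genes lie on the short arm of chromosome 19 (RefSeq, GRCh38.p14). ANGPTL4 spans 8364155 to 8374370 on the plus strand, ANGPTL6 spans 10092338 to 10106190 on the minus strand, and C19orf80 spans 11239619 to 11241943 on the plus strand, inside DOCK6, which is read from the minus strand. In the GENCODE release 29 basic annotation, 256 of the 1223 exonic bases of C19orf80 are also exonic in DOCK6, and 442 of the 1944 exonic bases of ANGPTL6 are exonic in C19orf66 on the other strand. Whether strand was used in counting is not given in the sources used here, so the split of reads in these stretches is uncertain. LIPC lies on chromosome 15 (58431991 to 58569844), LIPG on chromosome 18 (49561479 to 49599185), LIPA on chromosome 10 (89213572 to 89414679) and LMF1 on chromosome 16 (853634 to 981613).

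The promoters of ANGPTL4 and C19orf80 are shown because these are the inhibitors whose levels differed from Empty in opposite directions. Each run is the 250 bases before the RefSeq start, 5′ to 3′ on the gene's own strand, from chr19:8363905-8364154 and chr19:11239369-11239618 (GRCh38.p14, plus strand).
ANGPTL4: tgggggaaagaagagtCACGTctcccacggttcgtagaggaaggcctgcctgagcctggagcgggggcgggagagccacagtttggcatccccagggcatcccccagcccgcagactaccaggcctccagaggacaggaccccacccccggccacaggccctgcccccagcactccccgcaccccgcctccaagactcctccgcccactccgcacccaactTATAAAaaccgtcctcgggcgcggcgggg
C19orf80: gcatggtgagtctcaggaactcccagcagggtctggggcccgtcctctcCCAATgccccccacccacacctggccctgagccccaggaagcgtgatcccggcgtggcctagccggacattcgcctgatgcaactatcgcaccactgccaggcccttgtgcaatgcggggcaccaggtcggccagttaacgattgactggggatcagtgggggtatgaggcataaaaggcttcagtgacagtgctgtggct
Capitals mark matches to 5 motifs searched on both strands: CCAAT, the box bound by NF-Y; CACGTG, the E-box; AGGTCA, an element bound by nuclear receptors; ACGTG, the core of hypoxia response elements, which also lies inside the E-box; and TATAAA, the TATA box. In ANGPTL4, the reverse complement of ACGTG starts at position -234 from the start and TATAAA at position -29. In C19orf80, CCAAT starts at position -201. Of 27305 RefSeq promoters of the same length, 33% hold CCAAT, 18.7% ACGTG, 12.1% AGGTCA, 11.1% TATAAA and 6.49% CACGTG. These matches are letters, and binding at them was not measured. The promoter table matched 7 of the 9 members.

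Per length of exon, the lysosomal lipase LIPA was the most abundant member in every line and C19orf80 the next. LIPA stood at 41.0 ± 1.99 CPM per kb in Z2, 40.2 ± 0.988 in Z5 and 34.0 ± 1.34 in Z9, against 44.1 ± 2.46 in Empty (SD, n = 3). C19orf80 stood at 18.6 ± 2.59, 21.2 ± 1.94 and 14.2 ± 0.931 CPM per kb in Z2, Z5 and Z9, against 31.6 ± 3.44 in Empty. ANGPTL4, LIPC, LMF1, LIPG and ANGPTL6 followed in that order in each of the 4 lines, ANGPTL6 at 0.506, 0.597 and 0.448 CPM per kb in Z2, Z5 and Z9, against 0.322 in Empty. Wells of neighbours in this order did not overlap in any line among these 7 genes. Lengths are unions of GENCODE exons, 11828 bases for LIPG, so the order depends on that annotation.

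**Figure D1:**
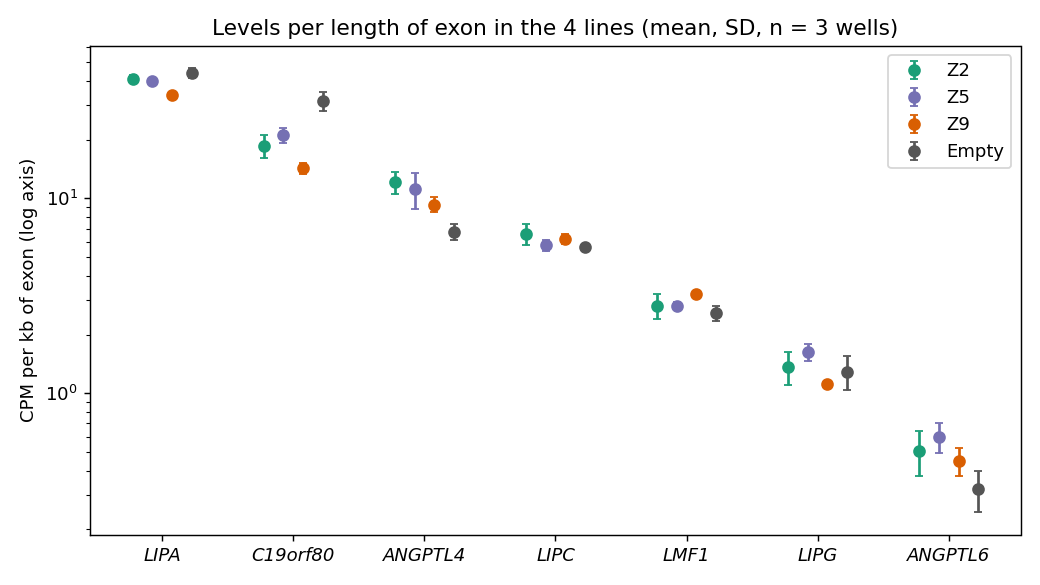
Mean CPM per kb of exon (log axis, SD over 3 wells) of the 7 members that passed the filter, in Z2, Z5, Z9 and Empty. The order of the genes is the same in the 4 lines, and the gap between C19orf80 and ANGPTL4 is widest in Empty (31.6 against 6.73 CPM per kb).

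ANGPTL4 was higher in each labelled line. It had 19.8, 25.5 and 23.1 CPM in Z2 wells a to c, 16.0, 22.7 and 24.2 in Z5 and 15.8, 18.8 and 17.9 in Z9, against 11.8, 14.0 and 12.1 in Empty. Every well of the 3 labelled lines lay above the highest Empty well. The log2 fold change was 0.85 ± 0.14 in Z2 (SE, edgeR quasi-likelihood test, adjusted p = 0.000817), 0.73 ± 0.14 in Z5 (edgeR adjusted p = 0.00338) and 0.47 ± 0.14 in Z9 (edgeR adjusted p = 0.0335). For the mean of the 3 lines it was 0.68 ± 0.12, a 1.60-fold level (edgeR adjusted p = 0.000919). The Z9 call was lost without Empty a (adjusted p = 0.121), Empty c (0.0938), Z9 b (0.114) or Z9 c (0.0852), and at 0.0727 without the filter on low counts. The lines shared the Empty wells, so these 3 values are not independent of each other.

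Whether ANGPTL4 differed between the labelled lines was tested directly. Z9 minus Z2 was -0.38 ± 0.14, with all Z9 wells below all Z2 wells, and did not pass (edgeR adjusted p = 0.114). This comparison passed with DESeq2 (adjusted p = 0.0383), without Z2 a (edgeR adjusted p = 0.0434) and without Z5 a (0.0382). Z9 minus Z5 was -0.26, with an interval from -0.56 to 0.035, and Z5 minus Z2 was -0.12, with an interval from -0.41 to 0.17.

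C19orf80 differed from Empty in the opposite direction. Among the labelled lines, however, both C19orf80 and ANGPTL4 averaged lowest in Z9. It had 22.1, 20.1 and 26.3 CPM in Z2 wells a to c, 23.2, 27.7 and 26.8 in Z5 and 17.3, 18.6 and 16.3 in Z9, against 34.4, 38.6 and 42.8 in Empty. All wells of the 3 labelled lines lay below all Empty wells, and all Z9 wells lay below all wells of Z2 and Z5. The wells of Z2 and Z5 overlapped. The log2 difference from Empty was -0.76 ± 0.10 in Z2, -0.58 ± 0.099 in Z5 and -1.15 ± 0.10 in Z9 (SE), so that Z9 held 0.451 of the Empty level. DOCK6, which shares exonic bases with it, stood at 72.9 ± 9.77 CPM in Z2, 67.0 ± 6.87 in Z5 and 64.0 ± 2.50 in Z9, against 69.1 ± 8.18 in Empty (SD, n = 3). DOCK6 passed no comparison with Empty (edgeR adjusted p = 0.638 in Z2, 0.819 in Z5 and 0.502 in Z9).

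The ratio of ANGPTL4 to C19orf80 counts needs no scaling between libraries. It was 0.894, 1.27 and 0.879 in Z2 wells a to c, 0.689, 0.818 and 0.905 in Z5 and 0.912, 1.01 and 1.09 in Z9, against 0.343, 0.362 and 0.283 in Empty. The means were 1.01 ± 0.221 in Z2, 0.804 ± 0.109 in Z5 and 1.00 ± 0.0913 in Z9, against 0.329 ± 0.0411 in Empty (SD, n = 3). No labelled well overlapped an Empty well. The ratio contains C19orf80 and so is also given without a test.

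**Figure D2:**
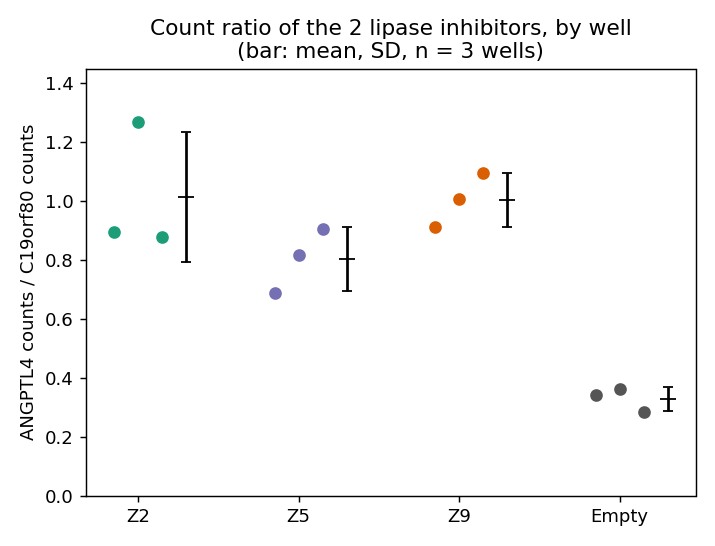
ANGPTL4 counts divided by C19orf80 counts in each well (points) with the mean and SD of 3 wells (bars). The 3 Empty wells lie between 0.283 and 0.362, below every well of Z2, Z5 and Z9.

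ANGPTL6, also known as angiopoietin-related growth factor for its effects on vessels and energy use in mice, was scarce, with 26 to 78 counts per well. It had 0.977, 0.730 and 1.24 CPM in Z2 wells a to c, 0.964, 1.15 and 1.37 in Z5 and 0.756, 0.830 and 1.03 in Z9, against 0.510, 0.572 and 0.796 in Empty. Z5 wells lay above all Empty wells, while Z2 and Z9 each had 1 well below the highest Empty well. ANGPTL6 rose in Z5, with a log2 fold change of 0.87 ± 0.25 (SE, edgeR adjusted p = 0.0239). The value was 0.64 ± 0.25 in Z2 (edgeR adjusted p = 0.0768) and 0.46 ± 0.26 in Z9 (edgeR adjusted p = 0.224). The mean of the 3 lines passed (0.66 ± 0.21, edgeR adjusted p = 0.0294). The Z5 call was lost without Empty a (adjusted p = 0.111), Empty b (0.0834), Z5 b (0.0717) or Z5 c (0.127). The call of the mean was lost with wells summed per line (0.158), and without Empty a (0.159), Empty b (0.118), Z2 c (0.0527), Z5 c (0.0534) or Z9 c (0.0511), and Z2 passed without Empty c (0.0475) or Z2 b (0.0372). C19orf66, on the other strand, did not pass in the mean of the lines (-0.14, edgeR adjusted p = 0.185).

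Of the lipases tested, LIPA passed against Empty, among single lines in Z9. LIPA frees cholesterol and fatty acids from lipoprotein lipids taken up into lysosomes. It had 119, 130 and 128 CPM in Z2 wells a to c, 120, 126 and 124 in Z5 and 105, 108 and 99.7 in Z9, against 131, 130 and 144 in Empty. All wells of Z9 lay below every well of the other 3 lines. LIPA fell by 0.38 on the log2 scale in Z9 (SE 0.055, edgeR adjusted p = 0.000109), to 0.770 of the Empty level, and passed with each library left out in turn. In Z2 the value was -0.11 ± 0.055 (edgeR adjusted p = 0.162) and in Z5 -0.13 ± 0.055 (edgeR adjusted p = 0.110), which passed in a fit of Z5 and Empty alone (0.0477). The mean of the lines was -0.21 ± 0.044 (edgeR adjusted p = 0.00234), a call lost with wells summed per line (0.280). The summed macrophage markers were 1853 to 2031 CPM in Z2, 1976 to 2100 in Z5 and 1545 to 1691 in Z9, against 1775 to 1946 in Empty. The sum lay below every Empty well in Z9, overlapped Empty in Z2 and lay above every Empty well in Z5. LYZ fell in Z9 (-0.20, edgeR adjusted p = 0.0222). It was lower in Z9 than in Z2 (-0.24, edgeR adjusted p = 0.0305) and Z5 (-0.32, edgeR adjusted p = 0.0104). LYZ had 1244847 counts in all, against 722 for CD14, 60 for CSF1R, 18 for CD163, 3 for PTPRC and 0 for MARCO. The sum therefore describes LYZ, whose part in the LIPA result was not tested.

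The difference of LIPA between labelled lines was tested as well. Z9 minus Z2 was -0.27 ± 0.055 (SE, edgeR adjusted p = 0.0153) and Z9 minus Z5 was -0.24 ± 0.055 (edgeR adjusted p = 0.0317). The first call was lost without Z9 a (adjusted p = 0.0562), Z9 b (0.0533) or Z9 c (0.0617), and in a fit of Z9 and Z2 alone (0.104). The second was lost without Z5 b (0.179), Z5 c (0.157), Z9 a (0.108), Z9 b (0.0724) or Z9 c (0.146). The interval of Z5 minus Z2 ran from -0.14 to 0.089.

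LIPC, hepatic lipase, and LIPG, endothelial lipase, passed no comparison with Empty. LIPC had 26.9, 34.3 and 29.5 CPM in Z2 wells a to c, 24.9, 26.5 and 28.3 in Z5 and 26.6, 29.2 and 30.2 in Z9, against 26.9, 25.9 and 25.6 in Empty. Z2 wells lay just above the Empty wells, and wells of Z5 and Z9 overlapped them. The log2 values were 0.21 in Z2 (interval 0.043 to 0.38, edgeR adjusted p = 0.0638), 0.024 in Z5 (interval -0.14 to 0.19) and 0.13 in Z9 (interval -0.035 to 0.30). LIPC passed in Z2 without Z2 a (edgeR adjusted p = 0.0105).

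LIPG had 15.2, 13.6 and 19.5 CPM in Z2 wells a to c, 17.8, 21.5 and 18.5 in Z5 and 13.2, 13.7 and 12.7 in Z9, against 12.5, 14.8 and 18.5 in Empty. Every line overlapped Empty, whose wells were widely spread. Against Empty the log2 value was 0.075 in Z2 (edgeR adjusted p = 0.747), 0.33 in Z5 (0.131) and -0.21 in Z9 (0.330), and Z5 passed without Empty c (edgeR adjusted p = 0.0220). Every Z9 well lay below every Z5 well. That difference was -0.55 ± 0.14 (SE) and did not pass (edgeR adjusted p = 0.0774). It passed with DESeq2 (adjusted p = 0.00373), in a fit of Z9 and Z5 alone (edgeR adjusted p = 0.00112), and without Empty a (0.0392), Empty c (0.0341) or Z2 c (0.0357).

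LPL (chromosome 8, 19939253 to 19967259) was at or near 0. It had 1 count in Empty c and 0 in every other well. GPIHBP1 (chromosome 8, 143213218 to 143217170) had 3, 1 and 0 counts in Z5 wells a to c and 0 in every well of Z2, Z9 and Empty. A count of 0 allows a level of up to 3 counts, which is 0.0460 to 0.0589 CPM in these libraries and covers counting error only. No fold is given for either gene. APOC2, the cofactor of lipoprotein lipase, was also listed at 0 in every well. Which annotation was counted is unknown here, and a row of 0 says only how the gene is listed.

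LMF1 had 8.40, 6.21 and 7.58 CPM in Z2 wells a to c, 7.44, 7.68 and 7.01 in Z5 and 8.85, 8.42 and 8.33 in Z9, against 6.47, 6.34 and 7.47 in Empty. All Z9 wells lay above all Empty and all Z5 wells. LMF1 rose in Z9, by a log2 fold change of 0.33 ± 0.11 (SE, edgeR adjusted p = 0.0351). The values were 0.13 in Z2 (edgeR adjusted p = 0.417) and 0.12 in Z5 (0.483). The Z9 call was lost without Empty a (adjusted p = 0.121), Empty b (0.129), Z9 a (0.101), Z9 b (0.0807) or Z9 c (0.0649). The mean of the lines did not pass (0.19, edgeR adjusted p = 0.115) and passed without Z2 b (0.0245). Z9 minus Z5 was 0.21 (edgeR adjusted p = 0.374) and Z9 minus Z2 was 0.21 (edgeR adjusted p = 0.244).

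**Figure D3:**
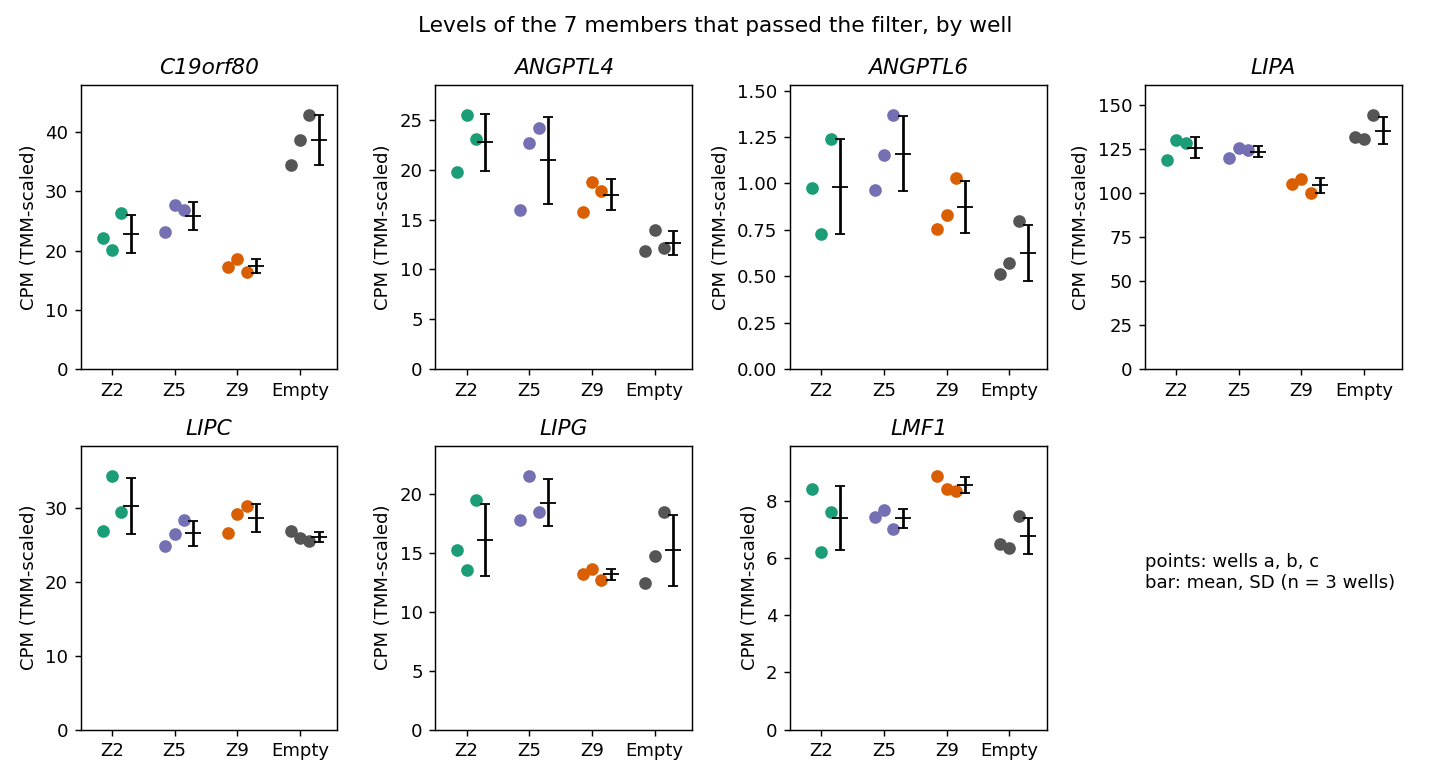
CPM on TMM-scaled library sizes of the 7 members that passed the filter, in each well (points) with the mean and SD of 3 wells (bars). C19orf80 and LIPA are lowest in Z9, LMF1 is highest there, and ANGPTL4 lies above Empty in every labelled well.

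Leaving C19orf80 aside, 6 members were tested. In Z2, 1 of 6 was called, against 23.9% of all genes tested, and it was higher, as were 12.4% of all genes. In Z5, 2 of 6 were called, against 15% of all genes, 2 higher (8.27% of all genes) and 0 lower (6.68%). In Z9, 3 of 6 were called, against 19.2% of all genes, 2 higher (9.66%) and 1 lower (9.58%). In the mean of the lines 3 of 6 were called, against 25.6% of all genes, 2 higher (13%) and 1 lower (12.6%). For Z9 minus Z2, 1 of 6 was called, against 5.17% of all genes, 0 higher (1.96%) and 1 lower (3.21%). For Z9 minus Z5, 1 of 6 was called, against 1.52% of all genes, 0 higher (0.432%) and 1 lower (1.09%). Nothing is read from the counts that involve Z9, since the level of C19orf80 there was part of the choice. Between Z5 and Z2 edgeR called 0 of 6, against 0.00654% of all genes, and DESeq2 also called 0. LIPC alone was below 0.05 before adjustment. In these cultures of 1 cell line, a lower level can mean fewer cells that express a gene or less RNA per cell, which bulk counts cannot tell apart.

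**Figure D4:**
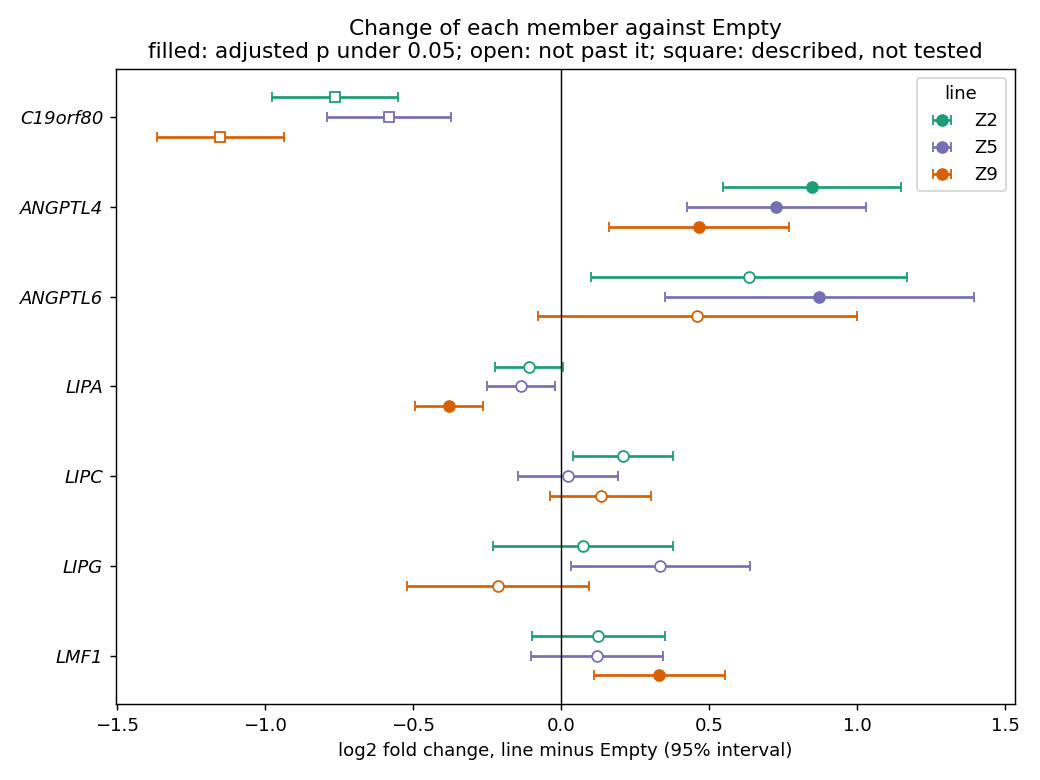
Log2 fold change of each member against Empty in Z2, Z5 and Z9, with 95% intervals. Filled circles passed the test (ANGPTL4 in all 3 lines, ANGPTL6 in Z5, LIPA and LMF1 in Z9), open circles did not, and squares mark C19orf80, which was not tested.

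Genes of the same family or pathway were then described by list, each against all genes tested. Over all genes the median log2 change in the mean of the 3 lines was 0.0029, and 13% rose and 12.6% fell. Values after symbols in the next paragraphs are log2 fold changes of that mean unless a line is named. Of 10 relatives of the angiopoietin-like genes, 5 were tested, and 2 rose. FGL1, a hepatocyte-secreted fibrinogen-like protein, averaged 116 ± 4.40 CPM in Z2, 129 ± 1.17 in Z5 and 126 ± 1.31 in Z9, against 78.1 ± 1.03 in Empty (0.66 ± 0.039, edgeR adjusted p = 1.93e-09). FIBCD1, a chitin-binding membrane protein, also rose (0.95 ± 0.19, edgeR adjusted p = 0.00168), and ANGPTL1 had a value of 0.062 (edgeR adjusted p = 0.686). Of 15 relatives of the secreted lipases, 4 were tested and 2 fell, the pancreatic lipase-related gene PNLIPRP2 (-1.74 ± 0.31, edgeR adjusted p = 0.000487) and LIPH (-1.06 ± 0.36, edgeR adjusted p = 0.0393). Both were scarce, PNLIPRP2 at 0.120, 0.137 and 0.0957 CPM in Z2, Z5 and Z9, against 0.397 in Empty. The LIPH call was lost without Empty a, Empty b, Empty c, Z2 c, Z5 b, Z9 a or Z9 b (edgeR adjusted p up to 0.157) and with DESeq2 (0.0695).

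Of 18 tested cofactors, folding and cleavage factors of the lipases, 2 rose and 4 fell, with a median of 0.038. The remnant receptor LRP1 (0.31) rose, and the heparan sulfate proteoglycan SDC1 (-0.31), which captures remnants on hepatocytes, and the cholesteryl ester transfer protein CETP (-0.61) fell. CETP averaged 2.56 ± 0.280 CPM in Z2, 2.67 ± 0.415 in Z5 and 2.68 ± 0.463 in Z9, against 4.01 ± 0.128 in Empty (SD, n = 3). Of 13 tested intracellular lipases, 1 rose and 2 fell, with a median of 0.032. The carboxylesterase CES1, which takes part in the release of stored triglyceride, averaged 53.1 ± 7.60 CPM in Z2, 63.8 ± 5.35 in Z5 and 66.6 ± 6.24 in Z9, against 114 ± 7.91 in Empty (-0.91 ± 0.077, edgeR adjusted p = 1.17e-06). The related esterase AADAC (-0.82) fell, and the adipose triglyceride lipase gene PNPLA2 (0.19) rose, a call lost without Empty a (edgeR adjusted p = 0.0562).

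LIPA was set beside 20 other lysosomal genes, all tested. Of these, 6 rose and 1 fell in the mean of the lines, with a median of 0.084. The protease CTSB (0.32), the beta-glucuronidase GUSB (0.27) and the membrane protein SCARB2 (0.24) rose, and GLA (-0.30), named after its value was seen, fell, a call lost without Empty a (edgeR adjusted p = 0.122). In Z9, where LIPA fell, 5 of the 20 rose and 0 fell, beside 9.66% and 9.58% of all genes, with a median of 0.029. Of these 5 calls, 4 were lost without Z9 b. Between Z9 and either of the other labelled lines, 0 of the 20 were called. Over all genes only 5.17% were called for Z9 minus Z2 and 1.52% for Z9 minus Z5.

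ANGPTL4 is induced by fatty acids through PPAR receptors and by low oxygen, so both groups of targets were listed. Of 13 tested PPAR targets, 2 rose and 1 fell, with a median of 0.044. Among them ACADVL (0.15), an enzyme of fatty acid oxidation in mitochondria, rose, and ACOT1 (-0.28), a thioesterase of fatty acyl-CoA, fell. The ACADVL call was lost without Empty a, Empty b, Empty c, Z2 c, Z5 b, Z5 c, Z9 b or Z9 c (edgeR adjusted p up to 0.133), and the ACOT1 call without Empty b or Empty c (up to 0.0797). Of 14 tested hypoxia targets, 7 rose and 0 fell, with a median of 0.15. Line by line 9 rose in Z2, 7 in Z5 and 2 in Z9, with medians of 0.27, 0.19 and 0.054. Over all genes 12.4% rose in Z2, 8.27% in Z5 and 9.66% in Z9. The oxygen sensor EGLN3 averaged 107 ± 16.6 CPM in Z2, 97.0 ± 10.2 in Z5 and 99.2 ± 11.4 in Z9, against 41.5 ± 4.69 in Empty (1.28 ± 0.11, edgeR adjusted p = 8.52e-06). The glucose transporter SLC2A1 (0.36) and PDK1 (0.28) rose too. Against Z2, 7 of the 14 were lower in Z9, beside 3.21% of all genes. Among them was PDK1 (-0.34, edgeR adjusted p = 0.0149), whose call was lost without Z9 a (0.0577), Z9 b (0.0548) or Z9 c (0.0515). All 7 calls were lost when any of these 3 wells was left out. Whether these genes and ANGPTL4 moved together for one reason was not tested.

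C19orf80 is a target of insulin, LXR, SREBP1c and ChREBP signalling, which also drive fatty acid synthesis. Of 13 tested targets of these factors, 3 rose and 4 fell in the mean of the lines, with a median of 0.00017. PNPLA3 (-0.40) fell, and the ChREBP targets TXNIP (0.82) and ARRDC4 (0.87) rose. In Z9, 3 rose and 6 fell, beside 9.66% and 9.58% of all genes, with a median of -0.11. Of these 9 calls, 4 were lost without Empty c. Z9 was lower than Z2 for 5 of the 13 genes, beside 3.21% of all genes. These 5 calls against Z2 were all lost without Z9 a. Z9 was also lower than Z5 for 5 of the 13, beside 1.09% of all genes. They were PNPLA3 (-0.60), the citrate lyase ACLY (-0.45), the desaturase SCD (-0.42), the cholesterol exporter ABCA1 (-0.35) and the elongase ELOVL6 (-0.31). These 5 were named after their values were seen. With Z5 b, Z5 c, Z9 a or Z9 c left out the calls of SCD and ELOVL6 against Z5 were lost (edgeR adjusted p up to 0.163), and without Z5 c that of ABCA1 (0.0676). For C19orf80 itself, Z9 minus Z5 was -0.57 ± 0.10 and Z9 minus Z2 was -0.39 ± 0.10 (SE). Its low level in Z9 was part of the choice, so these values lend the list no support. Whether the listed genes and C19orf80 moved together for one reason was not tested.

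Of 20 tested transcription factors and receptors that act on these genes, 2 rose and 2 fell in the mean of the lines, with a median of 0.021. The glucocorticoid receptor NR3C1 (0.25) and PPARG (0.27) rose, and the hypoxia-inducible factor EPAS1 (-0.28) fell. The PPARG call was lost without Empty a (edgeR adjusted p = 0.145). With the wells summed per line, which leaves 1 Empty sample, the calls of the mean were lost for PPARG (edgeR adjusted p = 0.489), NR3C1 (0.0956) and EPAS1 (0.0974). In the other lists the same setting ended the calls of FIBCD1, LIPH, LRP1, SDC1, PNPLA2, GUSB, SCARB2, GLA, ACADVL, ACOT1, SLC2A1, PDK1 and PNPLA3 (edgeR adjusted p from 0.0502 for LRP1 to 0.370 for ACADVL).

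**Figure D5:**
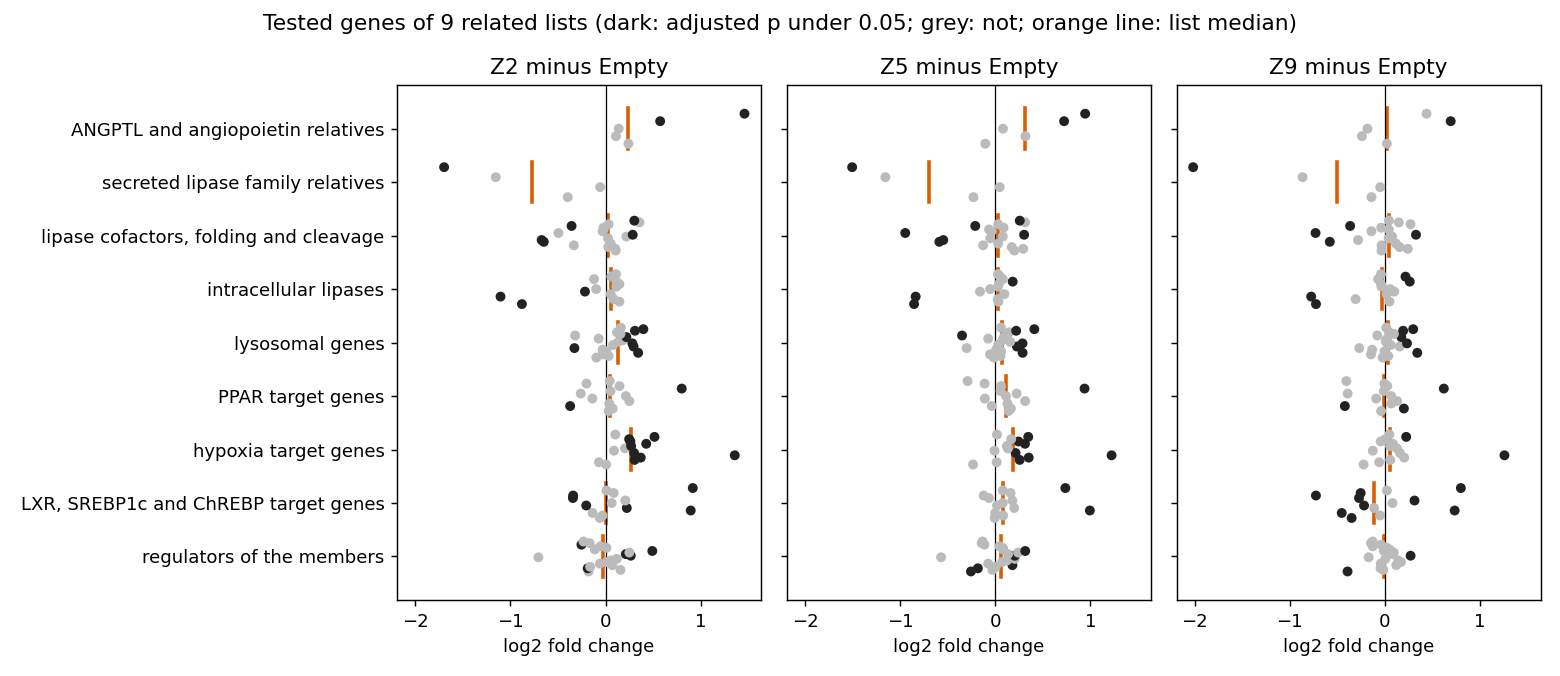
Log2 fold changes of single tested genes in 9 related lists, for Z2, Z5 and Z9 against Empty (dark points passed the test, grey points did not, orange lines are list medians). Hypoxia targets lie mostly right of 0 in Z2 and Z5 (medians 0.27 and 0.19) and around 0 in Z9 (0.054).

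The members' neighbours on the chromosome were examined, the 5 nearest tested genes on each side. Of 90 such genes, 10 rose and 11 fell in the mean of the lines, 23.3%, beside 25.6% of all genes. Next to ANGPTL4, RAB11B-AS1 (0.59) and RAB11B (0.23) rose in all 3 lines, as did ANGPTL4. The GENCODE span of RAB11B-AS1 overlaps ANGPTL4 on the opposite strand without shared exonic bases. Of the 10 neighbours of ANGPTL4, 3 rose and 1 fell. Of the 10 around C19orf80, 1 rose, CCDC159 (0.66), and 1 fell. Of the 10 around LIPA, 1 rose and 0 fell. SOX8, next to LMF1, rose in all 3 lines, by 1.07 in Z2, 0.88 in Z5 and 0.82 in Z9. CSGALNACT1 (0.76) near LPL and MYO5B (0.34) near LIPG also rose in all 3 lines. DNMT1 (-0.31) near ANGPTL6, CCNB2 (-0.31) near LIPC, CACNA1H (-0.66) near LMF1 and LY6E (-0.59) near GPIHBP1 fell in all 3. Some of these lie far off, by midpoint at -372 kb from LPL (CSGALNACT1), 429 kb from LIPG (MYO5B) and 614 kb from LIPC (CCNB2). Around LPL the neighbours reached 2112 kb. The CCNB2 call in the mean was lost without Empty a (edgeR adjusted p = 0.0652), and with wells summed per line those of CCNB2 (0.0572), CCDC159 (0.0576) and RAB11B (0.147) were lost. The interferon-induced genes IFIT3 and IFIT1, which lie within the annotated span of LIPA without sharing exonic bases, did not pass in the mean of the lines (-0.45 and 0.12). ALDH1A2, a retinoic acid synthesis gene whose GENCODE span overlaps LIPC without shared exonic bases, had 83 counts over all wells. At that depth it passed in Z2 (1.88, edgeR adjusted p = 0.0343), a call that was not checked by leaving libraries out. It did not pass in Z5 (edgeR adjusted p = 0.128) or Z9 (1.02, edgeR adjusted p = 0.320). The mean of the lines was 1.47 (edgeR adjusted p = 0.0585) and passed without Z2 a (0.0451), Z5 a (0.0249) or Z9 a (0.0456). IFIT3 passed in Z9 (-0.72, edgeR adjusted p = 0.0475), and in the mean when Z9 c was left out (0.0471).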

How the data were processed

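The authors deposited 1 table of whole-number read counts per gene symbol for 12 libraries. STAR, featureCounts and hg38 are named in the submitters' processing notes. Tool versions, the annotation, the strand setting and the handling of multi-mapped reads are unknown here. Libraries were grouped by their titles.

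The quasi-likelihood test of edgeR 4.0.16 (R 4.3.3) was the main test. Low counts were filtered with filterByExpr, which left 15289 genes, and TMM scaling was used. The robust model held 4 group means over the 12 libraries. Benjamini-Hochberg adjustment covered every gene tested, and an adjusted p under 0.05 was called. The SE is the log2 fold change over the square root of F, and intervals are 95%. The test was also run on simulated data, but that outcome is not reported here and no call rests on it. Alternatives were DESeq2 1.42.0 (size factors, Wald test), other filters on low counts, a block for the well letter, pairs of lines fitted alone, the 3 wells of each line added up, and leaving out each library.

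Members and lists were chosen with earlier results of these data known. Beside the members, the text names up to 3 genes per list with the smallest adjusted p in the mean of the lines, the genes most similar to a member, genes overlapping a member, and neighbours called in all 3 lines. Exceptions are marked, and 1 gene that this rule names is not reported here. Levels per length use exon unions of GENCODE release 29. Of the symbols, 23758 matched RefSeq directly and 1562 by synonym. Replicate libraries were distinct, with chi-square over its degrees of freedom between 6.31 and 45.8. The highest values were those of Z2 b against Z2 a (45.8) and Z2 c (32.1), and the next was 20.7 (Z9 a against Z9 c).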

Additional observations from a re-analysis of the deposited data

Results flagged for a closer look

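LIPA was the member whose change against Empty differed between labelled lines by a test of the difference itself. Z9 minus Z2 was -0.27 and Z9 minus Z5 was -0.24 on the log2 scale, with Z9 wells below every other well. Its level averaged 104 ± 4.12 CPM in Z9, 126 ± 6.10 in Z2 and 123 ± 3.03 in Z5, against 135 ± 7.53 in Empty (SD, n = 3). Either call was lost when a single Z9 well was left out. The cause was not tested.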

How the results depend on the processing

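The number of members called, of 6 tested, depended on single libraries, as did the number over all genes. With each library left out, 1 to 2 members were called in Z2, 1 to 3 in Z5 and 1 to 3 in Z9. In the mean of the lines it was 2 to 4, for Z9 minus Z2 0 to 2 and for Z9 minus Z5 0 to 2. Over all genes the same fits called 2130 to 4411 in Z2, 1087 to 3267 in Z5 and 1720 to 4048 in Z9. They called 2107 to 4787 in the mean of the lines, 75 to 2399 for Z9 minus Z2 and 37 to 653 for Z9 minus Z5. With wells summed per line, 1 member (ANGPTL4) was called in the mean of the lines, among 1016 genes in all. DESeq2 called 2 members for Z9 minus Z2 (1526 genes in all, against 790) and 2 for Z9 minus Z5 (504 genes, against 232). Fits of the pair alone called 0 members for Z9 minus Z2 (32 genes in all, against 790) and 2 for Z9 minus Z5 (664 genes, against 232). With a replicate block 3 members were called in Z2, among 4173 genes in all (3654 without it). It called 2 for Z9 minus Z2, among 1512 genes, and 2 for Z9 minus Z5, among 488 genes. The block added ANGPTL6 (edgeR adjusted p = 0.0332) and LIPC (0.0428) in Z2. It also added ANGPTL4 for Z9 minus Z2 (edgeR adjusted p = 0.0109) and LIPG for Z9 minus Z5 (0.0337). With line means removed, same-letter wells of different lines correlated from -0.101 to 0.173 (median 0.0647). Different-letter wells correlated from -0.153 to 0.150 (median -0.0451), and 6 of 12 libraries correlated best with their own letter. These values do not settle whether the letters mark a pairing. With the replicate block 10 of the 20 regulators passed in the mean of the lines, against 4 without it. Over all genes 4337 passed with it, against 3911 without. No call of a member reversed under any alternative run. DESeq2 size factors changed no call of a member. At 26 to 78 counts per well, depth limits ANGPTL6, and it leaves LPL and GPIHBP1 without a comparison.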

Other observations

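For each member that passed the filter, the protein-coding genes with the most similar level over the 12 libraries were looked up, as a description. The libraries share lines and scaling, and with 11024 candidates high values are bound to occur. ANGPTL4 was most like ZSWIM7 (Pearson r = 0.984), FAM110C (0.980) and CTDSPL (0.976). C19orf80 was most like the cytochrome c1 gene CYC1 (0.975), the cholesterol synthesis gene HSD17B7 (0.965) and TSPAN14 (0.964). LIPA was most like CETN2 (0.961), PPP2R2C (0.948) and HAVCR1 (0.941). HAVCR1 and CETN2 had log2 values against Empty of -1.39 and -0.54 in Z9. The values were -0.62 and -0.12 in Z2 and -0.57 and -0.13 in Z5. Both genes were picked for their likeness to LIPA, which was lowest in Z9, so their lowest values in Z9 follow from that choice. LMF1 was most like CRAMP1L (0.963), ACSL1 (0.944) and TSPYL2 (0.940). LIPC was most like PITPNC1 (0.930), LIPG like UNC13A (0.935) and ANGPTL6 like IMMP2L (0.924). Among the members themselves, C19orf80 and LIPA were the most alike (0.868), and LIPA and LMF1 the most opposed (-0.708). C19orf80 was chosen for its low level in Z9, where LIPA was also lowest, so their likeness lends no support to a link. These values are over 12 wells of 4 lines and largely restate differences between lines.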
